A study of Mus musculus with 18 samples.

Results

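The 10 genes described here encode matricellular and other matrix proteins of the activated fibroblast, and were chosen by symbol out of the 51435 genes of the count table: Postn, Fn1, Tnc, Spp1, Sparc, Cilp, Fbln2, Eln, Fbn1 and Mfap4. All 10 had reads in every mouse and passed the filter of more than 1 count in total. The values come from RNA-seq of poly(A)-selected RNA of the left ventricle (LV) of 9 WT and 9 WWP2Mut/Mut mice, each library being 1 mouse. Both genotypes received angiotensin II (AngII), a vasoconstrictor peptide used to load the heart with pressure and make it fibrotic, at 500 ng/kg/min from an osmotic pump for 28 days, starting at 8 weeks of age. WWP2Mut/Mut mice are homozygous for a 4-bp frameshift deletion that CRISPR/Cas9 made in exon 2 of Wwp2, a gene for an E3 ubiquitin ligase, on a C57BL/6J background, and WT mice are their littermates. The mutation is carried by every cell of the animal and is designed to remove the full-length and N-terminal WWP2 isoforms, not the C-terminal isoform. The comparison of the genotypes asks whether these matrix genes differ in the pressure-loaded ventricle without those isoforms. Mice without AngII were not analysed here, so no value below measures a response to the hormone.

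Matricellular proteins are secreted into the extracellular matrix, where they bind collagen, growth factors and integrins on the cell surface and alter how cells attach and signal, while adding little to the mechanical scaffold. Elastin, the fibrillins and their partners form the scaffold itself, in which elastin is deposited on fibrillin microfibrils and crosslinked by lysyl oxidases. In the heart most of them are made by fibroblasts, and periostin and tenascin-C are known as signs of fibroblast activation after injury or pressure load. The files give 1 value per gene, so splice forms such as the EDA-containing form of fibronectin cannot be separated.

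As a check of the labels, Wwp2 (chr8:107436365-107558595, GRCm38) had 3.83, 5.10 and 6.01 TPM, the length-corrected level of each gene, as the lowest, median and highest of the 9 WT mice, and 1.19, 1.58 and 3.00 TPM in the 9 WWP2Mut/Mut mice. Its log2 fold change was -1.40 (SE 0.157, edgeR quasi-likelihood test, adjusted p = 0.00113), and it was the 1 gene called of the 24804 tested. Library totals were 24566994 to 37451087 expected counts. The summed TPM of 7 cardiomyocyte markers was 41808 to 56102, as the label LV implies, but 5 libraries (WT 43-3, 45-1 and 84-2, WWP2Mut/Mut 22-3 and 8-2) held the atrial light chain Myl7 above 10 TPM. The same 3 WT libraries held Chad, a cartilage and valve matrix gene, at 4.22, 1.33 and 2.51 TPM, and their summed TPM of 6 valve and cartilage markers was 38.0, 25.5 and 22.3, against 4.63 to 8.21 in the other mice. WT 43-3 also had a listed RNA concentration of 1.68 ng/µl, where the others had 88.6 to 320.9 ng/µl. The TPM values themselves carried an offset: among the 11334 genes with a mean above 1 TPM, 92.0% had a lower mean log2(TPM + 1) in WWP2Mut/Mut mice, with a median difference of -0.11, whereas on log2 CPM, the counts scaled by library size and TMM factors, it was 0.00. TPM is therefore given below as the level in each mouse, and the genotypes are compared by edgeR on the counts, with TMM normalization and with sequencing lane and RNA concentration as covariates.

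The promoters of Postn, Spp1 and Cilp are shown because these 3 genes had the largest fitted differences between the genotypes, a choice made after their values were seen. RefSeq gave a promoter entry for 7 of the 10 genes, and Fn1, Eln and Mfap4 had none. Postn and Spp1 had 2 windows each, of which the one within 10 bases of the GENCODE gene start is shown. Each window holds the 250 bases before the transcription start in RefSeq's GRCm38.p6, 5′ to 3′ on the coding strand, which is the plus strand for all 3 genes. The positions are chr3:54360857-54361106 for Postn, chr5:104434861-104435110 for Spp1 and chr9:65264930-65265179 for Cilp. Capitals mark matches on either strand to 6 motifs, the SMAD box CAGAC, the AP-1 site TGANTCA, the CCAAT box CCAAT, the TATA box TATAAA, the TEAD site GGAATG and the GC box GGGCGG.
Postn: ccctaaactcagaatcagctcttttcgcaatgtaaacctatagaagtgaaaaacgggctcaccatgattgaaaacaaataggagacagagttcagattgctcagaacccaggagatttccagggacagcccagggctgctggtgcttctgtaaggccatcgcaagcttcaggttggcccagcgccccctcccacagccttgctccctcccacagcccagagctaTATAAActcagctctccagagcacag
Spp1: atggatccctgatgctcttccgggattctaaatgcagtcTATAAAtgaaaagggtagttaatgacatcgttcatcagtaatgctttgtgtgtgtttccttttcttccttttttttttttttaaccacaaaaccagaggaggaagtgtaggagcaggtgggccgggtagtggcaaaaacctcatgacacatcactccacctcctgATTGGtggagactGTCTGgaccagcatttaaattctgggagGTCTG
Cilp: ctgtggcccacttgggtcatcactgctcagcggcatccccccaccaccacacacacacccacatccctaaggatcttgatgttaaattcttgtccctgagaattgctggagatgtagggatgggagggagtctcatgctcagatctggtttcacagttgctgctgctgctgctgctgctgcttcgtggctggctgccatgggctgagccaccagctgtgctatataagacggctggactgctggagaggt
The window of Postn held 1 match, a TATA box that starts 26 bases before the transcription start. The window of Spp1 held 4 matches, which were 2 SMAD boxes, 33 and 5 bases before the start, a CCAAT box 46 bases before it and a TATA box 211 bases before it. None of the 6 motifs matched as written in the window of Cilp, and variants of their letters were not searched. The second windows of Postn and Spp1 each held 1 match, a SMAD box 191 bases before the other start of Postn and 41 bases before that of Spp1. Of all 32851 RefSeq promoter windows of this length, 12.4% held the TATA box, 42.2% the SMAD box, 33.8% the CCAAT box, 6.75% the AP-1 site, 12.6% the TEAD site and 32.7% the GC box, so the matches are of a kind that many promoters have.

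The levels of the 10 genes spanned a wide range, from Sparc at 230 ± 43.3 TPM (SD, n = 18) down to Tnc at 0.214 ± 0.104 TPM (SD, n = 18). TPM is corrected for transcript length, so it allows genes to be compared. The order was Sparc, Fbln2, Postn, Mfap4, Eln, Fn1, Cilp, Fbn1, Spp1 and Tnc. Sparc was above Fbln2, Postn above Mfap4, and Fbn1 above Spp1 in all 18 mice. Fbln2 was above Postn, and Spp1 above Tnc, in 17 mice. Neighbours in the middle of the order were less clearly apart: Mfap4 exceeded Eln in 14 mice, Eln exceeded Fn1 in 16, Fn1 exceeded Cilp in 12 and Cilp exceeded Fbn1 in 12. Relative to its mean, Spp1 varied most between mice, with an SD of 98.8% of the mean in WT and 44.4% in WWP2Mut/Mut mice, and Fbln2 least, with 17.7% and 16.5%. The first place of Spp1 in WT mice rested on the 3 libraries with Chad. Without them Spp1 had 0.632 ± 0.391 TPM and Tnc 0.190 ± 0.127 TPM in WT mice (SD, n = 6 each). In counts, the 2 lowest genes rested on few reads, 4 to 205 per mouse for Spp1 and 9 to 130 for Tnc, while every mouse had at least 11216 reads of Sparc.

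**Figure D1:**
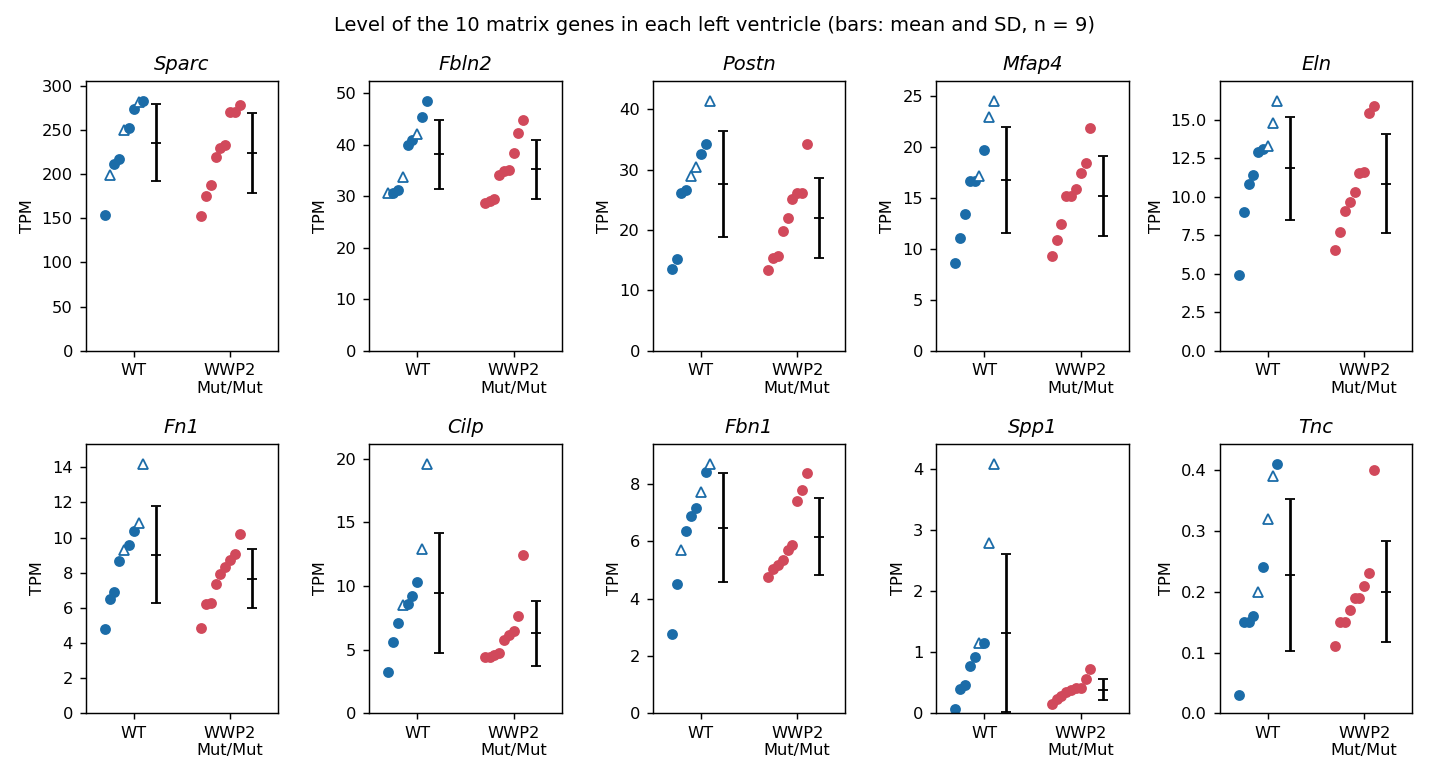
TPM (y axis, linear, from 0) of each of the 10 genes in the 9 WT (blue) and 9 WWP2Mut/Mut (red) mice, in order of level, with the mean and SD as a black bar; open triangles are the 3 WT libraries with Chad above 1 TPM. The genotypes overlap for every gene, and for Spp1 and Cilp the 2 highest mice are open triangles (4.09 and 2.79 TPM, and 19.6 and 12.9 TPM).

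No gene of the 10 was called between the genotypes. By edgeR at an adjusted p below 0.05, 0 of 10 passed, against 0.00403% of all genes tested, and the adjusted p was 1.00 for each of the 10. At an unadjusted p below 0.05, 0 of 10 passed in edgeR (3.66% of all genes) and 2 of 10, Spp1 and Cilp, in DESeq2 (2.41% of all genes), where neither was called after adjustment. The edgeR count moved with the mice and covariates used: it was 3 (Postn, Spp1 and Cilp, all lower) without WT 16-1 (4.21% of all genes) and also without WT 25-3 (3.17% of all genes). As each other mouse was left out it was 0 to 2 (2.96% to 4.61% of all genes). It was 2 (Spp1 and Cilp) with lane as the only covariate (2.75% of all genes), and 1, Eln, which was higher, without the 3 libraries with Chad (2.56% of all genes). With the summed liver markers added as a covariate it was also 2, Postn and Cilp, both lower (4.91% of all genes). The fitted difference was negative, that is lower in WWP2Mut/Mut mice, for 7 of 10 genes, where 51.9% of all genes were negative, and the median log2 fold change of the 10 was -0.12 against -0.01 for all genes. All 10 had a lower mean TPM in WWP2Mut/Mut mice, as had 75.4% of all genes. On log2(TPM + 1) all 10 were lower too, as were 92.0% of the 11334 genes with a mean above 1 TPM. The median difference of the 10 on that scale was -0.11, the same as the offset of those 11334 genes. On log2 CPM 6 of the 10 were lower, where 48.1% of the 11334 genes were, and the median difference of the 10 was 0.00. In none of the 10 did the TPM of the genotypes fail to overlap, which 0.00403% of all genes did. Within sequencing lanes, and on log2 CPM, Postn and Cilp were lower in WWP2Mut/Mut mice in all 4 lanes, Spp1 in 3, Tnc, Fbln2, Eln and Mfap4 in 2, and Fn1, Sparc and Fbn1 in 1. Because the tissue was taken whole, fewer fibroblasts and less RNA per fibroblast cannot be told apart in any of these values.

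**Figure D2:**
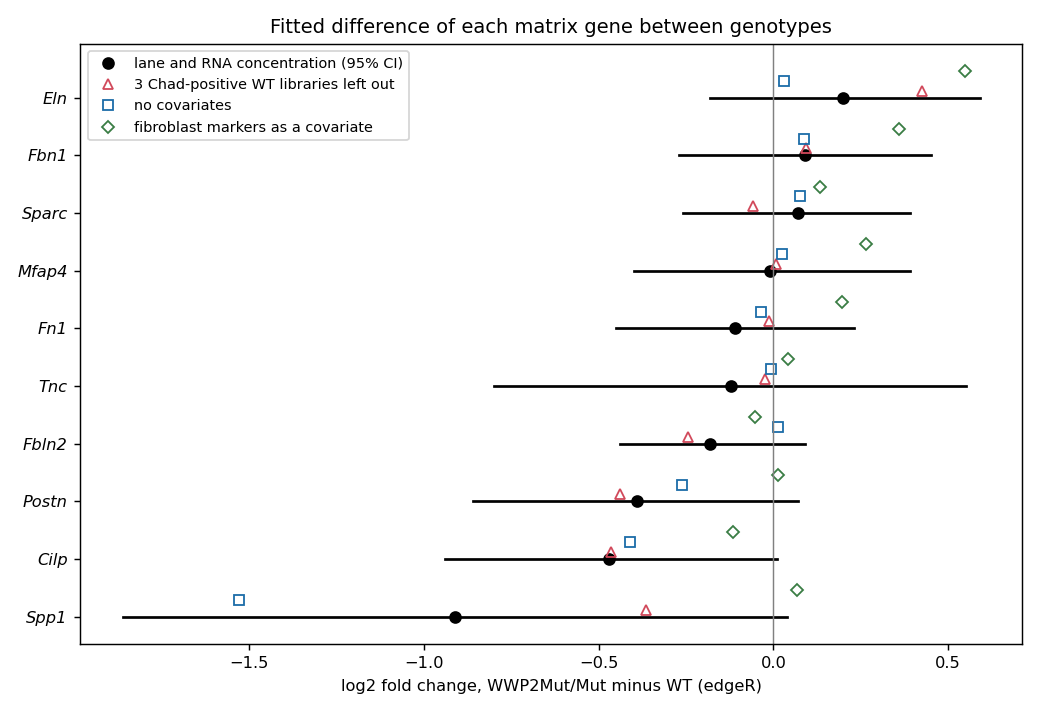
Log2 fold change (x axis, WWP2Mut/Mut minus WT) of each gene by edgeR with lane and RNA concentration as covariates (black point, bar: 95% CI), and without the 3 Chad-positive WT libraries (red triangle), without covariates (blue square) and with the fibroblast marker sum added (green diamond). All 10 intervals include 0, and Spp1 moves from -0.91 to -0.36 without the 3 libraries and to 0.07 with the fibroblast marker sum.

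Among the matricellular proteins of the 10, Spp1 (osteopontin, an integrin-binding phosphoprotein made by macrophages and activated fibroblasts; chr5:104435118-104441050, plus strand) had the largest difference. WT mice had 0.0800 TPM as the lowest, 0.930 as the median and 4.09 as the highest, with a mean of 1.31 ± 1.30 TPM (SD, n = 9). WWP2Mut/Mut mice had 0.150, 0.380 and 0.730 TPM, with a mean of 0.390 ± 0.173 TPM (SD, n = 9). Of the WT mice 6 were above every WWP2Mut/Mut mouse, while WT 16-1, at 0.0800 TPM, was below all of them. The log2 fold change was -0.91 (SE 0.453, 95% CI -1.86 to 0.04) with an unadjusted p of 0.0599 in edgeR and 0.0426 in DESeq2. On log2(TPM + 1), without covariates, the two-sided exact permutation test gave p = 0.0185 for a difference of -0.58, and Spp1 was the 1 gene of the 10 below 0.05, where 4.40% of all genes were. The exact permutation p of Spp1 was 0.0636 on log2 CPM, where the difference was -1.06. The other 9 genes had p between 0.0908 and 0.857 in the exact permutation test on log2(TPM + 1).

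The WT level of Spp1 rested on few mice, and WT 43-3 (4.09 TPM) and 84-2 (2.79 TPM) were both among the libraries with Chad. Without the 3 libraries with Chad above 1 TPM, WT mice had 0.632 ± 0.391 TPM (SD, n = 6), the two-sided exact permutation test gave p = 0.164, and the log2 fold change was -0.36, an alternative chosen after seeing the data. With the summed valve and cartilage markers as a covariate it was -0.28. Within sequencing lanes, Spp1 was lower in WWP2Mut/Mut mice in 3 of 4 lanes, with log2 CPM differences of -1.19, -2.44 and -1.20, and higher by 0.81 in lane 1. Without covariates the log2 fold change in edgeR was -1.53, with an adjusted p of 0.956. The 8 macrophage markers of the list, all above 0 in every mouse, summed to 27.4 to 42.6 TPM in WT and to 26.4 to 41.0 TPM in WWP2Mut/Mut mice. Their part in the result was not tested.

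Postn (periostin, which binds integrins and promotes collagen crosslinking; chr3:54361109-54391037, plus strand) ranged from 13.6 through a median of 28.9 to 41.4 TPM in WT mice, with a mean of 27.7 ± 8.81 TPM (SD, n = 9). In WWP2Mut/Mut mice it ranged from 13.4 through 21.98 to 34.3 TPM, with a mean of 22.01 ± 6.69 TPM (SD, n = 9). Of the WT mice 7 were above the WWP2Mut/Mut median and 1 WWP2Mut/Mut mouse, 62-1, was above the WT median. The fitted log2 fold change was -0.39 (SE 0.222, 95% CI -0.86 to 0.07) with an unadjusted p of 0.0940 in edgeR, and it was -0.44 without the 3 libraries with Chad. As each mouse was left out it ran from -0.55, without WT 16-1, to -0.26, without WT 45-3. Without the 3 libraries with Chad the WT mean was 24.8 ± 8.65 TPM (SD, n = 6), and the difference in log2(TPM + 1), without covariates, went from -0.30 (two-sided exact permutation test, p = 0.187) to -0.14 (p = 0.572). Postn was lower in WWP2Mut/Mut mice in each of the 4 lanes, by 0.18, 0.09, 0.39 and 0.50 in log2 CPM. With the summed fibroblast markers as a covariate the fold change was 0.01.

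Cilp (cartilage intermediate layer protein, a fibroblast product that can bind TGF-beta; chr9:65265180-65280605, plus strand) spread from 3.28 through 8.62 to 19.6 TPM in WT mice, a mean of 9.46 ± 4.70 TPM (SD, n = 9). WWP2Mut/Mut mice spread from 4.39 through 5.78 to 12.4 TPM, a mean of 6.28 ± 2.54 TPM (SD, n = 9). The highest WWP2Mut/Mut mouse, 62-1, stood well above the next at 7.64 TPM, and the highest WT mice were 43-3 and 84-2. The log2 fold change was -0.47 (SE 0.227, 95% CI -0.94 to 0.01) with an unadjusted p of 0.0537 in edgeR and 0.0418 in DESeq2. Cilp was lower in WWP2Mut/Mut mice in all 4 lanes, by 0.22, 0.06, 0.80 and 0.64 in log2 CPM. Without the 3 libraries with Chad the edgeR value was again -0.47, but the mean TPM of WT mice was 7.34 ± 2.57 (SD, n = 6), and the two-sided exact permutation test moved from p = 0.0908 to p = 0.446. With the summed liver markers as a covariate the edgeR value was -0.71 (adjusted p = 0.812).

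Sparc (osteonectin, a collagen-binding glycoprotein that assists collagen processing; chr11:55394500-55423183, minus strand), the most abundant of the 10, had 154, 250 and 283 TPM as lowest, median and highest in WT and 153, 230 and 279 TPM in WWP2Mut/Mut mice. Its means were 236 ± 43.5 and 224 ± 44.9 TPM (SD, n = 9 each), and the ranges almost coincided. The log2 fold change was 0.07 (95% CI -0.26 to 0.39) with an unadjusted p of 0.670 in edgeR. Tnc (tenascin-C, an adhesion-modulating hexamer; chr4:63959785-64047015, minus strand) had 0.0300, 0.200 and 0.410 TPM in WT and 0.110, 0.190 and 0.400 TPM in WWP2Mut/Mut mice. The means of Tnc were 0.228 ± 0.125 and 0.200 ± 0.0831 TPM (SD, n = 9 each), with a log2 fold change of -0.12 (SE 0.321, 95% CI -0.80 to 0.55) and an unadjusted p of 0.705 in edgeR. At the median of 55 reads in WT mice the counting error of Tnc was 13.5% of the count, against an SD between mice of 54.8% of the mean TPM.

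Fn1 (fibronectin, the adhesive glycoprotein of the provisional matrix, made also by the liver for plasma; chr1:71585520-71653200, minus strand) had 4.81, 9.29 and 14.2 TPM in WT mice, mean 9.02 ± 2.77 TPM (SD, n = 9). WWP2Mut/Mut mice had 4.85, 7.93 and 10.2 TPM, mean 7.66 ± 1.65 TPM (SD, n = 9), inside the WT range. The log2 fold change of Fn1 was -0.11 (SE 0.162, 95% CI -0.45 to 0.23) with an unadjusted p of 0.505 in edgeR. The highest value, 14.2 TPM, was in WT 45-1, the library with the highest albumin (Alb), 113 TPM, and the highest sum of 10 liver markers, 413 TPM. That sum ran from 30.0 through 123 to 413 TPM in WT and from 28.3 through 49.6 to 108 TPM in WWP2Mut/Mut mice. With it as a covariate the log2 fold change of Fn1 was -0.15. WT 45-1 also had the highest fibroblast marker sum of all mice, 1206 TPM, and the highest Myl7, 338 TPM. The source of its Fn1 was not tested.

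Of the proteins of elastic fibres and microfibrils, none had an unadjusted p below 0.05 in edgeR or DESeq2. Fbln2 (fibulin-2, which bridges elastic fibres and basement membranes; chr6:91212455-91272540, plus strand) had 30.6, 39.9 and 48.5 TPM in WT and 28.6, 34.9 and 44.9 TPM in WWP2Mut/Mut mice, means of 38.1 ± 6.76 and 35.2 ± 5.81 TPM (SD, n = 9 each). Its log2 fold change was -0.18 (95% CI -0.44 to 0.09) with an unadjusted p of 0.174 in edgeR, and 0.01 without covariates. Fbln2 was the 1 gene of the 10 in which WT 84-2 was the lowest WT mouse, where that library was high for Spp1 and Cilp.

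Eln (elastin; chr5:134702593-134747323, minus strand) had 4.93, 12.9 and 16.2 TPM in WT and 6.51, 10.3 and 15.9 TPM in WWP2Mut/Mut mice, with means of 11.8 ± 3.33 and 10.8 ± 3.17 TPM (SD, n = 9 each). Its log2 fold change was 0.20 (95% CI -0.18 to 0.59) with an unadjusted p of 0.285 in edgeR, while its mean TPM was lower in WWP2Mut/Mut mice. That value was 0.03 without covariates, and ran from 0.05 without WT 16-1, through 0.08 without either WWP2Mut/Mut 52-1 or 24-3 and 0.33 without WT 45-1, to 0.36 without WWP2Mut/Mut 53-1. Without the 3 libraries with Chad it was 0.42 (an unadjusted p of 0.0472 in edgeR, adjusted p = 1.00), and without the 5 with Myl7 it was 0.55 (an unadjusted p of 0.0158 in edgeR, adjusted p = 1.00). Lanes were split, with Eln lower on log2 CPM in 2 of 4. Fbn1 (fibrillin-1, the backbone of microfibrils; chr2:125300594-125507993, minus strand) had 2.78, 6.89 and 8.70 TPM in WT and 4.75, 5.68 and 8.36 TPM in WWP2Mut/Mut mice, with means of 6.47 ± 1.90 and 6.16 ± 1.33 TPM (SD, n = 9 each). The log2 fold change of Fbn1 was 0.09 (95% CI -0.27 to 0.45) with an unadjusted p of 0.601 in edgeR. Mfap4 (microfibril-associated protein 4; chr11:61485431-61488900, plus strand) had 8.61, 16.7 and 24.5 TPM in WT and 9.27, 15.2 and 21.9 TPM in WWP2Mut/Mut mice, with means of 16.8 ± 5.19 and 15.2 ± 3.90 TPM (SD, n = 9 each). Its log2 fold change was -0.01 (95% CI -0.40 to 0.39) with an unadjusted p of 0.973 in edgeR, the closest to 0 of the 10. In the scaffold genes the genotypes overlapped over most of their ranges.

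Genes of the same biology were counted from lists written with earlier results of these data known. Of 23 other matricellular genes, 0 were called by edgeR or DESeq2, 5 had an unadjusted p below 0.05 with either tool, those 5 being lower in WWP2Mut/Mut mice (3.66% of all genes in edgeR and 2.41% in DESeq2), and the median log2 fold change was -0.11 (-0.01 for all genes). The 5 were Ccn1, Ccn2, Comp, Thbs1 and Thbs4, of which Comp is also on the list of valve and cartilage markers. The edgeR count was 4, with Comp lost, without the 3 libraries with Chad (2.56% of all genes). It was 2, Ccn1 and Ccn2, without the 5 with Myl7 (2.12% of all genes), and 3, of which 2 were lower, with the valve marker sum as a covariate (2.82%). With the fibroblast marker sum as a covariate it was 2, with Ccn1 lower and Fbln7 higher (3.24% of all genes), and with RNA concentration as the only covariate it was 3 (5.68% of all genes). In other fits the count rose, to 6, all lower, without covariates (4.60%) and with lane alone (2.75%). Adding gene body coverage as a covariate gave 7, all lower (5.37%). The smallest p belonged to Ccn1, an integrin ligand induced by growth factors, at 29.8 ± 8.59 TPM in WT and 17.5 ± 4.60 TPM in WWP2Mut/Mut mice (SD, n = 9 each), with a log2 fold change of -0.64 and an adjusted p of 0.837 in edgeR. The thrombospondins Thbs4 (5.53 ± 4.10 and 2.70 ± 1.26 TPM, SD, n = 9 each) and Thbs1 (3.68 ± 2.08 and 1.47 ± 0.477 TPM, SD, n = 9 each), the second an activator of latent TGF-beta, had log2 fold changes of -0.75 and -1.10. Thbs4 was highest in WT 43-3 (14.8 TPM) and 84-2 (9.13 TPM), 2 of the libraries with Chad. Sparcl1, the relative of Sparc and the most abundant of the list, had 101 ± 17.4 and 100 ± 21.5 TPM (SD, n = 9 each), log2 fold change 0.00 (SE 0.112).

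Of 23 other elastic fibre genes, 0 were called by edgeR or DESeq2, 1 was higher and 1 lower at an unadjusted edgeR p below 0.05 (3.66% of all genes), 2 genes had one in DESeq2 (2.41% of all genes), and the median log2 fold change was -0.07 (-0.01 for all genes). The higher gene was Emilin2, an elastic fibre glycoprotein, at 6.28 ± 1.10 TPM in WT and 6.91 ± 1.52 TPM in WWP2Mut/Mut mice (SD, n = 9 each), with a log2 fold change of 0.31. The lower one was Ltbp2, a fibrillin-binding protein, at 2.17 ± 1.30 and 1.25 ± 0.607 TPM (SD, n = 9 each), with a log2 fold change of -0.57. Without the 3 libraries with Chad (2.56% of all genes), or without any one of WT 45-1 (2.96%), WT 45-3 (3.47%) and WWP2Mut/Mut 53-1 (3.15%), the edgeR count was 1, Emilin2. It was 0 without the 5 libraries with Myl7 (2.12% of all genes) and with the fibroblast (3.24%) or the valve (2.82%) marker sum as a covariate, and limma on log2(TPM + 1) also gave 0 (4.66%). The edgeR count rose to 3, of which 2 were lower, without covariates (4.60%), with lane alone (2.75%) and with gene body coverage added (5.37%). Emilin3, next by p, was near the limit of detection, with at most 0.0300 TPM in any mouse. Ltbp4, which guides elastin assembly, was the most abundant at 110 ± 30.6 and 98.9 ± 22.7 TPM (SD, n = 9 each) and had a log2 fold change of -0.19.

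Of 22 integrins, syndecans and other receptors for these proteins, 0 were called by edgeR or DESeq2, and 0 had an unadjusted p below 0.05 with either tool (3.66% of all genes in edgeR and 2.41% in DESeq2). Their median log2 fold change was -0.06 (-0.01 for all genes), and Itgb1, the beta subunit common to most fibronectin and tenascin receptors, was the most abundant at 80.0 ± 25.5 TPM in WT and 72.7 ± 23.5 TPM in WWP2Mut/Mut mice (SD, n = 9 each). Itgb7, Sdc4 and Itgb8 had the smallest p, with log2 fold changes of 0.52, 0.23 and -0.69, and the edgeR count was 0 to 2 as each mouse was left out, 2 being without WWP2Mut/Mut 22-3 (3.57% of all genes). It was also 2 with the liver (4.91%), the atrial (4.77%) or the fibroblast (3.24%) marker sum as a covariate.

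Of 24 activated fibroblast genes, 0 were called by edgeR or DESeq2, with 1 higher and 2 lower at an unadjusted edgeR p below 0.05 (3.66% of all genes), 3 genes with one in DESeq2 (2.41% of all genes) and a median log2 fold change of -0.09 (-0.01 for all genes). The lower genes were Tgfb2, a TGF-beta ligand, at 1.57 ± 0.532 and 1.05 ± 0.239 TPM (SD, n = 9 each), log2 fold change -0.41, and Col12a1, a fibril-associated collagen, at 0.597 ± 0.506 and 0.234 ± 0.119 TPM (SD, n = 9 each), log2 fold change -0.93. The higher one was Tagln, a contractile gene of smooth muscle and myofibroblasts, at 37.1 ± 8.92 and 40.5 ± 15.9 TPM (SD, n = 9 each), log2 fold change 0.48. Without the 3 libraries with Chad 2 genes, Tgfb2 and Col8a1, had an unadjusted edgeR p below 0.05, both lower (2.56% of all genes). Without the 5 with Myl7 they were Col8a1 (lower) and Tagln (higher), against 2.12% of all genes, and with the fibroblast marker sum as a covariate Col3a1 and Tagln, both higher, against 3.24%. As each mouse was left out the edgeR count was 2 to 4 (2.96% to 4.61% of all genes), and 4, all lower, without WT 16-1 (4.21%). Liver markers as a covariate gave 4, of which 3 were lower (4.91%), and gene body coverage gave 3, all lower (5.37%). Acta2, smooth muscle actin and the usual myofibroblast marker, was the most abundant at 96.4 ± 25.7 TPM in WT and 81.8 ± 26.0 TPM in WWP2Mut/Mut mice (SD, n = 9 each), while its log2 fold change by edgeR was 0.15 (SE 0.200).

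The spread between mice of 1 genotype was wide, and the same mice were at its ends for several genes. WT 16-1 was the lowest mouse for 6 of the 10 genes and was among the lowest 6 of 18 mice for all 10. WWP2Mut/Mut 53-1 was likewise among the lowest 6 for all 10 genes. At the other end WT 43-3 was the highest mouse for 6 genes and WT 45-3 had 9 genes among the highest 6, as had 43-3, and the highest WWP2Mut/Mut mouse, 62-1, had 7. On log2 CPM the counts were 10 for 16-1 and 9 for 53-1 in the lowest 6, and 7 for 43-3 and 8 for 45-3 in the highest 6. WT 16-1 had the highest gene body fraction of all mice, 0.0540, and WT 43-3 the lowest, 0.0288, a measure of coverage along transcripts whose definition the sample table does not give.

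**Figure D3:**
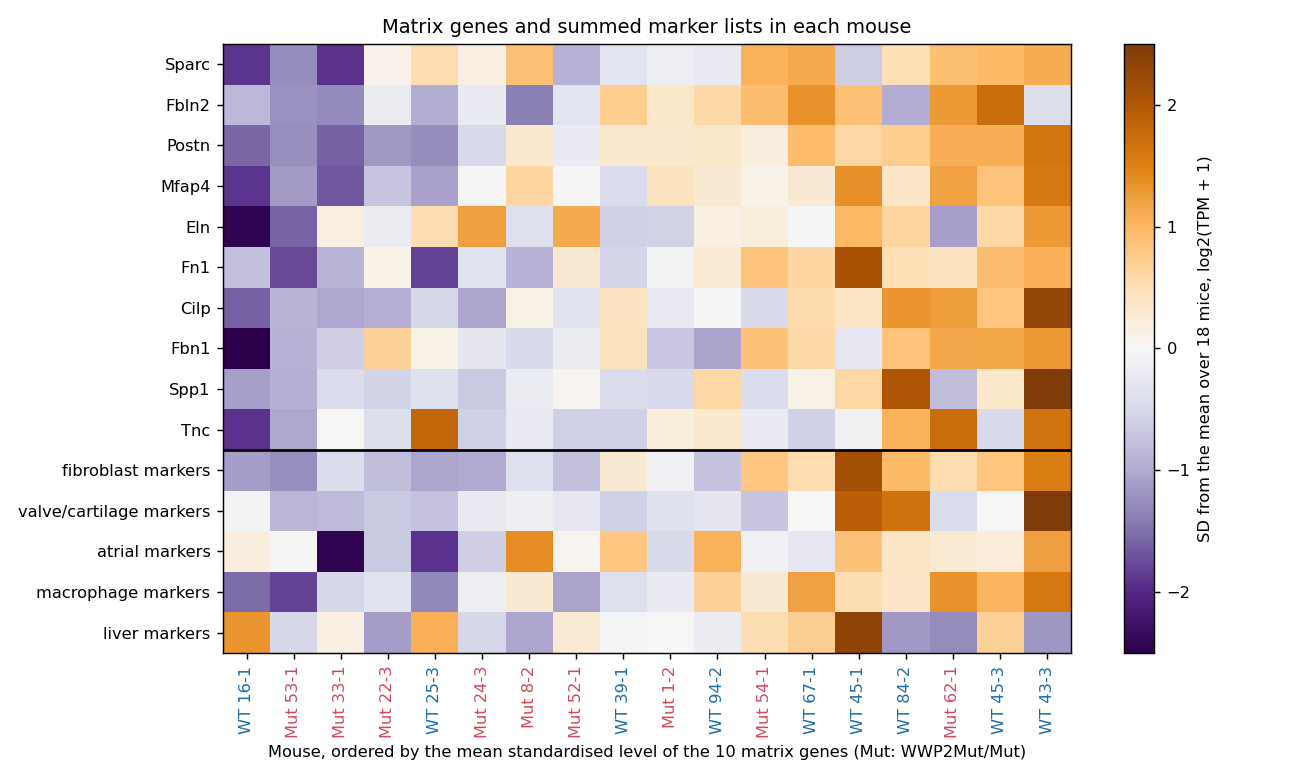
Each of the 10 genes (upper rows) and 5 summed marker lists (lower rows) in each of 18 mice, as SD from the mean of log2(TPM + 1) over the mice (orange high, purple low), with mice ordered by the mean of the 10 genes. WT 16-1 is at the low end (-1.67) and WT 43-3 at the high end (1.42), and both genotypes occur at each end.

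The summed TPM of 8 fibroblast markers, all of them above 0 in every mouse, was 611, 864 and 1206 (lowest, median, highest) in WT and 596, 705 and 912 in WWP2Mut/Mut mice. With that sum as a covariate, the log2 fold changes were 0.01 for Postn, 0.07 for Spp1 and -0.12 for Cilp, against -0.39, -0.91 and -0.47 without it. The fold changes of the scaffold genes moved upwards, to 0.55 for Eln, 0.36 for Fbn1 and 0.26 for Mfap4, and none of the 10 was called, though Eln had an unadjusted p of 0.00552 in edgeR. The marker list and the 10 genes are largely products of the same cells, so the sum and the genes are not separate measurements.

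Within each genotype most of the 10 genes varied together across mice. In WT mice the Pearson correlation of log2(TPM + 1) was above 0 in 42 of 45 pairs, with a median of 0.609 and a range of -0.405 to 0.912. In WWP2Mut/Mut mice it was above 0 in 36 of 45 pairs, with a median of 0.525 and a range of -0.373 to 0.975. All pairs of a genotype share the same 9 libraries and their TPM scale, and on log2 CPM the medians were 0.548 in WT and 0.322 in WWP2Mut/Mut mice. After the 2 mice farthest from the median of the first gene of each pair were left out, the medians were 0.629 and 0.258. As single mice were left out the WT median ran from 0.377, without 16-1, to 0.743, without 25-3, and the WWP2Mut/Mut median from 0.376, without 62-1, to 0.589, without 22-3. In WT mice the median r of Eln with the other 9 genes was 0.748 (0.471 to 0.830 as each mouse was left out) and in WWP2Mut/Mut mice -0.0398 (-0.384 without 53-1 to 0.217 without 62-1). That of Spp1 was 0.656 (0.509 to 0.743) in WT and 0.0309 (-0.138 without 53-1 to 0.438 without 62-1) in WWP2Mut/Mut mice. These were the 2 lowest median r of the 10 genes in WWP2Mut/Mut mice. Fbln2 went the other way, with 0.255 (-0.0709 to 0.402) in WT and 0.627 (0.443 to 0.774) in WWP2Mut/Mut mice. Fn1 had 0.516 and 0.537, and Tnc 0.548 and 0.556. For Postn, Sparc, Cilp, Fbn1 and Mfap4 the median r was lower in WWP2Mut/Mut mice. The difference between the genotypes was not tested.

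**Figure D4:**
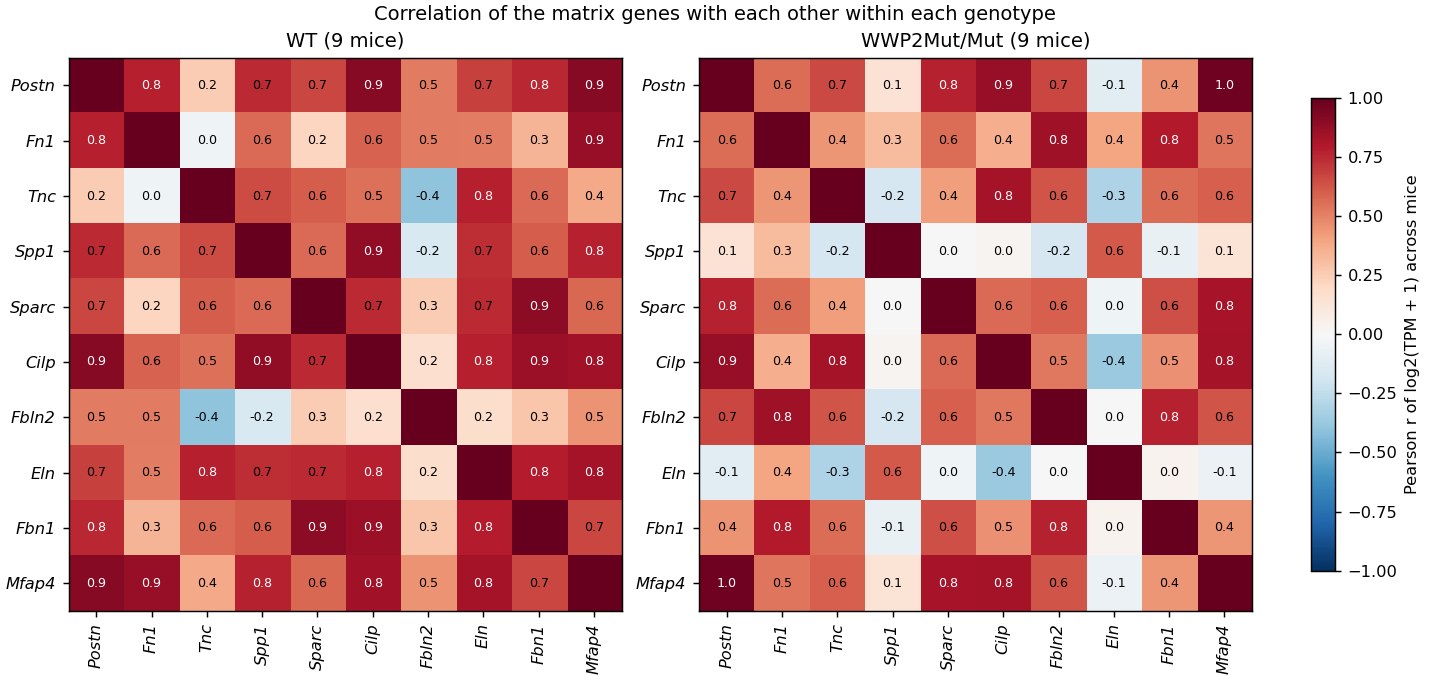
Pearson r (colour and number) between each pair of the 10 genes across 9 WT mice (left) and 9 WWP2Mut/Mut mice (right), on log2(TPM + 1). Postn, Cilp and Mfap4 are strongly correlated in both panels, and in the right panel Eln has r of both signs, from -0.373 with Cilp to 0.611 with Spp1.

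The most correlated pair was Postn with Mfap4, with r = 0.912 (rho 0.862, exact permutation p = 0.000739 and 0.00438) in WT and r = 0.975 (rho 0.983, exact permutation p = 5.51e-06 and 4.96e-05) in WWP2Mut/Mut mice, n = 9 each. Without the 2 farthest mice it was 0.694 and 0.952. Postn with Cilp had r = 0.909 (rho 0.900, exact permutation p = 0.000361 and 0.00203) and 0.872 (rho 0.867, exact permutation p = 0.000821 and 0.00451), and 0.850 and 0.824 without the 2 farthest mice. Cilp with Mfap4 had r = 0.843 (rho 0.762, exact permutation p = 0.00440 and 0.0213) and 0.830 (rho 0.783, exact permutation p = 0.00390 and 0.0172), and 0.536 and 0.723 without the 2 farthest mice. Postn and Cilp, which had larger fitted differences, and Mfap4, whose difference was closest to 0, thus moved together in each genotype. The p-values are among 45 pairs in each genotype and carry no adjustment, since the genes were chosen with results of these data known.

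The 3 pairs of lowest r, averaged over the genotypes, all held Fbln2, while in WWP2Mut/Mut mice alone the lowest was Cilp with Eln (-0.373, and 0.0252 without the 2 farthest mice), a pair at 0.774 in WT mice (0.116 without the 2 farthest mice). Spp1 with Fbln2 had r = -0.155 (rho -0.0837, exact permutation p = 0.677 and 0.834) in WT and -0.166 (rho -0.351, exact permutation p = 0.670 and 0.352) in WWP2Mut/Mut mice, and 0.688 and -0.675 without the 2 farthest mice. Fbln2 with Eln had r = 0.175 (rho -0.0500, exact permutation p = 0.708 and 0.912) and 0.00102 (rho -0.0667, exact permutation p = 0.998 and 0.880), and 0.451 and 0.271 without the 2 farthest mice. Tnc with Fbln2 had r = -0.405 (rho -0.485, exact permutation p = 0.274 and 0.187) in WT and 0.628 (rho 0.420, exact permutation p = 0.0536 and 0.260) in WWP2Mut/Mut mice, and -0.870 and 0.00753 without the 2 farthest mice. Leaving out those mice turned the sign of Spp1 with Fbln2 in WT and took Tnc with Fbln2 close to 0 in WWP2Mut/Mut mice, so these values rested on few mice.

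The genes outside the 10 whose level followed the mean of the 10 most closely across the 18 mice, after centring within genotype, included 3 genes of the lists above, Col3a1, Loxl1 and Col1a2. Olfml3, an extracellular olfactomedin protein, came first with r = 0.941, followed by Col3a1 (type III collagen, 0.934), Igf1 (a growth factor, 0.922) and Loxl1 (the elastin crosslinking enzyme, 0.922). B3gnt9 (0.912), Col1a2 (type I collagen, 0.902), Cnp (0.896), Tmem119 (0.894), Leprot (0.894) and Col6a1 (type VI collagen, 0.886) made up the first 10 of 11326 genes with a mean above 1 TPM. The median r over those 11326 genes was 0.359, since all values share the libraries and the TPM scale, and these r are given as a description.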

How the data were processed

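RNA of the LV of 18 AngII-treated mice was sequenced, 9 per genotype as the labels give it. The authors aligned the reads with STAR 2.5.2b and estimated gene levels with RSEM 1.2.31 (submitters' processing notes), with mouse genome m38 and Ensembl 89 per the methods. They deposited expected counts, of which 5.11% were not whole, and the authors' TPM for the same genes, which are corrected for length. The TPM of a mouse did not sum to a common total. The sums ran from 671770 in WWP2Mut/Mut 33-1 to 826381 in WT 94-2, so TPM levels and marker sums carry that unequal scale. The deposited sample table gives the lane, the RNA concentration and a gene body coverage fraction, and its 2 absorbance ratios and RNA volume were not used here. Symbols were found for 51242 of 51435 identifiers, and gene positions are those of GENCODE M21 on GRCm38.

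Counts were rounded, genes with at most 1 count over all mice were dropped, and the remaining 24804 were tested for genotype with edgeR 4.0.16 in R 4.3.3 (TMM factors, quasi-likelihood F test), with lane and centred RNA concentration as covariates and Benjamini-Hochberg adjustment over all of them. A call needs an adjusted p below 0.05. DESeq2 1.42.0, limma 3.58.1 on log2(TPM + 1), other filters, scalings and covariates, and leaving out each mouse were the alternatives. TPM was compared by two-sided exact permutation over all 48620 divisions of the mice, on log2(TPM + 1), in Python 3.11.15 with numpy 2.4.6, and the smallest p this allows is 4.11e-05. The scripts were tested on simulated data. Mouse numbers have 2 parts, such as 16-1, and the second (1, 2 or 3) occurs in both genotypes with no stated meaning. All mice of number 1 were on lanes 1 and 2 and all of numbers 2 and 3 on lanes 3 and 4, so beside lane only number 2 against 3 can be estimated. Deviations from the genotype means, averaged over the mice of a number, correlated between the genotypes at 0.410, 0.246 and 0.247 across 11334 genes for numbers 1, 2 and 3, and at 0.206 or less for unlike numbers, so fits with this number as a block, beside lane and in place of it, were added. Library totals were 24566994 to 37451087, and Spp1 and Tnc rested on the fewest reads. The counting error at the median count over all mice was 19.2% for Spp1 and 13.5% for Tnc.

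The 10 genes and all lists were chosen with earlier results of these data known. Named beside the 10 are Wwp2, of each list any called gene, the 3 of smallest edgeR p and the 1 of highest mean TPM, the 10 genes most correlated with the mean of the 10, and the 3 highest and 3 lowest pairs by mean r. Chad, Myl7, Alb and the libraries they mark, and Ccn2, Comp, Fbln7, Col8a1, Col3a1 and Cilp with Eln beside counts or r that they make up, were chosen after values were seen. Protein sequences were not used here.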

Additional observations from a re-analysis of the deposited data

Results flagged for a closer look

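For each gene and genotype, the extreme mouse was marked where its gap to the next mouse was large against the range of the 9 mice by Dixon's test, which chance does in about 1 of 20 groups. This marked 3 of the 22 groups of 9 mice (10 genes and Wwp2, 2 genotypes). WWP2Mut/Mut 62-1 had 0.400 TPM of Tnc, where the next WWP2Mut/Mut mouse had 0.230 TPM, and 12.4 TPM of Cilp, where the next had 7.64 TPM. WWP2Mut/Mut 52-1 had 3.00 TPM of Wwp2, where the next had 1.90 TPM.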

How the results depend on the processing

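The count of called genes among the 10 and in each of the 4 lists was 0 under all 36 alternatives, of which 18 left out 1 mouse each. With the second mouse number as a replicate block, beside lane or in place of it, both chosen after seeing the data, 0 of the 10 genes and 0 of each list were called again and the block changed no call. Beside lane Spp1 was -0.891, Cilp -0.476 and Postn -0.399, and in place of lane they were -0.769, -0.409 and -0.335. Wwp2 was -1.26 (adjusted p = 0.204, edgeR) without the 5 libraries with Myl7, and -1.61 to -1.33 as each mouse was left out. The count of genes with an exact permutation p below 0.05, which was 1 (Spp1), became 0 on log2 CPM, without the 3 libraries with Chad and without the 5 with Myl7, and was 1 to 2 as each mouse was left out, with Cilp the second (p = 0.0285 without WWP2Mut/Mut 62-1, p = 0.0160 without WT 16-1, two-sided exact permutation test). The alternatives on Chad, on Myl7 and on the valve markers were chosen after seeing the data.

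Fitted differences changed sign as follows, and the cause was not tested. With the fibroblast markers added, the log2 fold change was 0.014 for Postn, 0.197 for Fn1, 0.042 for Tnc, 0.068 for Spp1 and 0.264 for Mfap4. With the valve markers added it was 0.082 for Fn1, -0.013 for Sparc and 0.161 for Mfap4. Without the libraries with Myl7 it was 0.043 for Fn1, 0.173 for Tnc, -0.026 for Sparc and 0.113 for Mfap4. Without those with Chad it was -0.058 for Sparc and 0.008 for Mfap4. With lane alone it was 0.095 for Tnc, with no covariates 0.012 for Fbln2 and 0.024 for Mfap4, with RNA concentration alone 0.015 and with the replicate block 0.003 (beside lane) and 0.008 (in place of it) for Mfap4, with the atrial markers 0.121 for Mfap4, and with the liver markers -0.024 for Fbn1 and 0.043 for Mfap4. By limma on log2(TPM + 1) and log2(TPM + 0.1) it was -0.098 and -0.098 for Sparc and -0.048 and -0.044 for Fbn1. As each mouse was left out, the values were -0.189 to 0.017 for Fn1, -0.386 to 0.027 for Tnc, -0.012 to 0.150 for Sparc, -0.032 to 0.182 for Fbn1 and -0.121 to 0.078 for Mfap4.

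The mean difference behind the permutation test changed sign on log2 CPM for Tnc (0.137), Sparc (0.066), Fbn1 (0.110) and Mfap4 (0.016). Without the libraries with Chad it did for Tnc (0.016), Eln (0.071), Fbn1 (0.067) and Mfap4 (0.079), and without those with Myl7 for Fn1 (0.001), Tnc (0.022), Eln (0.088), Fbn1 (0.053) and Mfap4 (0.067). As each mouse was left out it was -0.149 to 0.021 for Fbn1. The median r of the pairs in WWP2Mut/Mut mice was 0.322 on log2 CPM. The lowest mouse, WT 16-1, had 9 counts of Tnc and 4 of Spp1.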

Other observations

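Several of the 10 genes moved with the gene body fraction across the 18 mice, among 10 relations computed. On log2(TPM + 1), Tnc had r = -0.676 (rho -0.630, permutation p = 0.00199 and 0.00608), and -0.572 without the 2 mice farthest from the median fraction. Fbn1 had r = -0.616 (rho -0.556, permutation p = 0.00553 and 0.0185), and -0.493 without those 2 mice. Cilp had r = -0.497 (rho -0.387, permutation p = 0.0352 and 0.114), and -0.379 without them. On log2 CPM the r were -0.558, -0.253 and -0.279. Within genotypes, Tnc had -0.799 in WT and -0.502 in WWP2Mut/Mut mice, and Fbn1 had -0.822 and -0.299. The values carry no adjustment for the 10 relations or for lane, and no value was computed within single lanes, which hold 4 or 5 mice.

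In the edgeR fit the RNA concentration of 1.68 ng/µl gave WT 43-3 a leverage of 0.433, the second of the 18 mice after WWP2Mut/Mut 62-1 at 0.486, whose concentration of 320.9 ng/µl was the highest listed.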
